A study of Homo sapiens with 8 samples.

Results

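H3K27ac, the acetylation of lysine 27 on histone H3, was mapped by ChIP-seq in human colonic epithelial cells (HCECs), and the sites examined here are those that had a peak in each of the 3 wild-type (WT) libraries and in none of the 3 CREBBP-KO libraries. Joining overlapping and touching peaks of the 6 deposited lists gave 143733 intervals. Lost intervals were chosen by presence and height: every WT list held a peak there with a fold of 3 or more, and the CREBBP-KO lists held none at any fold. The fold is the height of a peak over its local background, as the authors' peak caller gave it. There were 894 lost intervals. The rule used the lists of both genotypes, so the loss itself is a selection and was not tested. A missing peak means that no stretch passed the caller's threshold in that library (a q-value of 0.05), not that acetylation was absent.

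HCECs are the line HCEC-1CT, non-cancerous cells of the colon that were immortalized, and here they also carried a doxycycline-inducible Cas9. The WT libraries came from parental cells and the CREBBP-KO libraries, CBP_KO in the labels, from cells in which CREBBP was disrupted with guide RNAs. The study's methods describe the knockout cells used for ChIP-seq as monoclonal, but also say that clones of each target were pooled, with a matched pool of parental subclones. The 3 libraries of a genotype are numbered replicates, and no label says whether they came from separate cultures, so the spread between them may be technical. Disruption of CREBBP cannot be read from H3K27ac peaks. As a check of the labelled cell type, peaks within 1 kb of a gene start were counted for 15 colonic epithelial markers. At 9 of them, among them CDH1, CDX2, VIL1 and KRT20, no list had such a peak, while EPCAM, KRT8 and MUC2 had one in all 6 lists. All 6 mesenchymal markers counted, among them VIM, FN1 and ZEB1, had one in all 6 lists. The label of a colonic epithelial cell was therefore matched only in part by these promoters.

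CREBBP and its paralogue EP300 are acetyltransferases that transfer acetyl groups to histone tails, H3K27 among them, and are recruited to enhancers and promoters by transcription factors and by their own bromodomains. H3K27ac marks active promoters and active enhancers. Enhancers can lie in introns or far from any gene, and the nearest gene is only one candidate for the gene they act on.

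Of the lost intervals, 4 had a fold of at least 10 in each WT list. To show what kind of sequence such sites hold, the 300 bp around the summit of the highest WT peak are printed here for the 3 highest of them, with the highest of the 18 lost intervals that lie together on chromosome 18. The sequences are of the plus strand of hg38, from the reference genome. Capitals mark matches to the letters of 12 transcription factor motifs, described further on. None of these 4 windows touches an annotated exon. The windows are, in order, chr4:10180960-10181259 between genes and nearest to WDR1, chr5:114250177-114250476 in an intron of KCNN2, chr21:30206942-30207241 between genes and nearest to CLDN8, and chr18:73590947-73591246 between genes and nearest to FBXO15.
WDR1: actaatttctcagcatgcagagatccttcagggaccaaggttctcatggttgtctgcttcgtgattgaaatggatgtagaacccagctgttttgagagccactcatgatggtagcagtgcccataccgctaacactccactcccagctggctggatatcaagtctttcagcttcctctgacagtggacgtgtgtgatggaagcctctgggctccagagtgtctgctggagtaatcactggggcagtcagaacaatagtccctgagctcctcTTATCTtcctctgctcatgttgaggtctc
KCNN2: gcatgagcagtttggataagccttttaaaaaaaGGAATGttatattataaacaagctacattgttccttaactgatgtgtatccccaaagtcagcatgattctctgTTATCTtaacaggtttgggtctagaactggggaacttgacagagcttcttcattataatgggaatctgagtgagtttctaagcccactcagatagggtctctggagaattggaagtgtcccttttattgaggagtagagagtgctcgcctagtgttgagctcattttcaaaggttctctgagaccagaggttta
CLDN8: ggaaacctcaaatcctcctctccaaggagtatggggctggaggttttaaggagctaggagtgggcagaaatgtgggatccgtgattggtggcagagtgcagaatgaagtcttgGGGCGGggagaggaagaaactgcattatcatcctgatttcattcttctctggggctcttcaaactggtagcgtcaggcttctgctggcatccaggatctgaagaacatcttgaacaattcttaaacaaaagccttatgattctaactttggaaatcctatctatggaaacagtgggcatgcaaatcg
FBXO15: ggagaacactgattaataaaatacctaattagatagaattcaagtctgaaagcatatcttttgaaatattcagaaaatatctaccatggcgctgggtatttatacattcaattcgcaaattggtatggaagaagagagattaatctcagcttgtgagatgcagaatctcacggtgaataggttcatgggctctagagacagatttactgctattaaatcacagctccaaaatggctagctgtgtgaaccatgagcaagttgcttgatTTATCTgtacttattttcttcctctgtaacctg

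The capitals are a GATA match in the windows near WDR1 and FBXO15, a TEAD and a GATA match in KCNN2 and an SP/KLF match near CLDN8. GC content was 50.3% in the window near WDR1, 46.7% near CLDN8, 40.3% in KCNN2 and 36.3% near FBXO15.

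The lost intervals were few and mostly low in WT. Intervals with a fold of at least 3 in each WT list, called WT-passing here, numbered 51591, and the 894 lost intervals were 1.73% of them. Another 1141 WT-passing intervals (2.21%) had a peak in 1 CREBBP-KO list, 2179 (4.22%) in 2 and 47377 (91.8%) in all 3. Their median of the mean WT fold was 3.98 for those with a peak in no CREBBP-KO list, 3.98 with 1, 4.14 with 2 and 7.12 with 3. The number of lost intervals rested on each WT library, being 1448, 1440 and 1727 without WT replicates 1, 2 and 3, when fewer lists had to pass. WT lists held between 86163 and 93567 peaks and CREBBP-KO lists between 99008 and 111697, so the lists in which the lost sites were missing were the longer ones.

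Heights of the lost intervals were alike in the WT libraries. The rule asks for a fold of 3 or more in each WT list, so this is not a test of agreement between libraries. Their median fold was 4.00 in WT replicate 1, 4.05 in replicate 2 and 3.86 in replicate 3, at the percentiles 45.0, 45.7 and 40.2 of all peaks of each list. The median SD of the fold over the 3 WT libraries was 0.50, or 12.2% of the mean. By height, 460 of the 6126 WT-passing intervals with a mean WT fold from 3 to under 4 were lost (7.51%), and 306 of 9653 from 4 to under 5 (3.17%). From 5 to under 7 the share was 0.923% and from 7 to under 10 it was 0.179%. Of the 14289 intervals at 10 or more, 4 were lost (0.0280%). A low peak needs a smaller change to fall below detection, so the share lost by height follows in part from the rule.

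At the threshold, membership turned on small differences. The lost interval with the lowest qualifying value, on chromosome 17 from 81731014 to 81732012 near SLC25A10, had WT folds of 3.25, 3.19 and 3.00. Just inside lay an exon of HNRNPU at 4.04, 3.34 and 3.00 and an interval near RDH10 at 3.29, 3.26 and 3.00, and just outside lay introns of DRAM1 and OSBPL1A, whose lowest WT fold was 2.997 each.

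The 12 highest lost intervals had mean WT folds between 8.01 and 13.6. The highest, near WDR1, a cofactor of actin filament disassembly, had folds of 13.0, 14.3 and 13.5 in WT replicates 1, 2 and 3. It had a lost companion 5020 bp away with folds of 6.61, 5.42 and 7.90, and the nearest CREBBP-KO peak of any fold lay 55679 bp away. The interval near CLDN8, which encodes a claudin of tight junctions, had 11.7, 11.5 and 12.9. It too had a lost companion, 17123 bp away with 5.86, 5.94 and 6.17, and the nearest CREBBP-KO peak was 300781 bp away. Both sites were thus pairs of lost peaks in stretches without any CREBBP-KO peak.

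KCNN2, a calcium-activated potassium channel gene, was different. Its lost intron interval had 13.2, 13.0 and 12.3, but a retained interval lay 241 bp away and a CREBBP-KO peak 862 bp away. Here the lost interval lay beside one that kept a peak. The interval near CXorf51A on the X chromosome, from 147069139 to 147071037, had 13.2, 11.2 and 10.0 and no CREBBP-KO peak within 493641 bp.

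**Figure D1:**
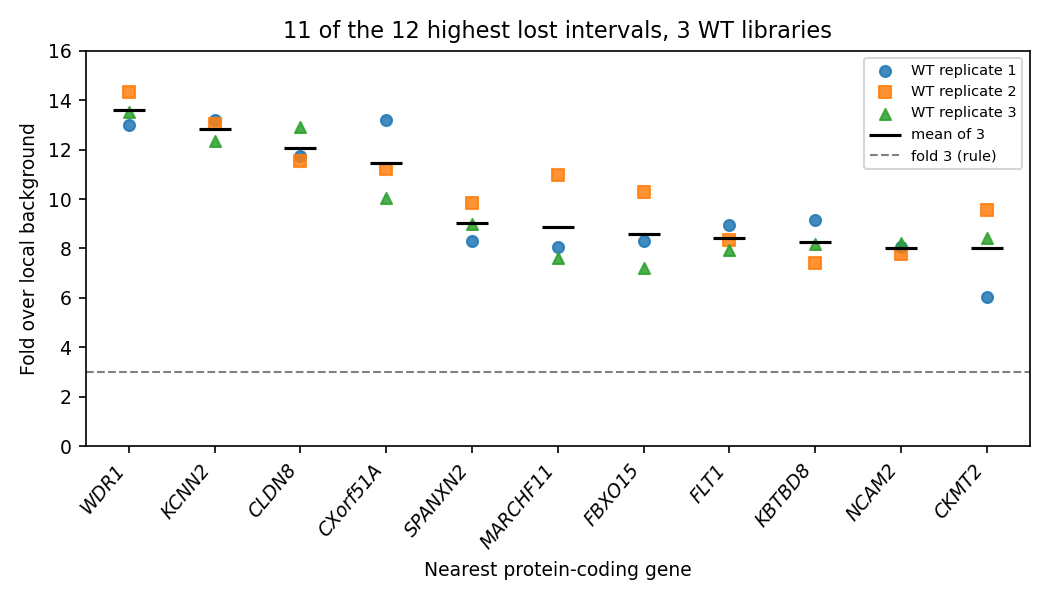
Fold over local background (y axis, linear, from 0) of 11 of the 12 lost intervals with the highest mean WT fold, named by their nearest protein-coding gene; each symbol is 1 WT library, the bar is their mean, and the dashed line is the fold of 3 that the rule asks for. The CREBBP-KO lists have no peak at any of them and are not drawn; the means fall from 13.6 near WDR1 to 8.01 near CKMT2, and the 3 WT libraries all lie above the dashed line at each.

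Others of the 12 lay near genes of varied function. Between genes and nearest to SPANXN2, of a cancer-testis family on the X chromosome, the folds were 8.30, 9.82 and 9.00. In an intron of MARCHF11, a membrane ubiquitin ligase, they were 8.06, 10.97 and 7.60. Near FLT1, a receptor for vascular endothelial growth factor, they were 8.96, 8.35 and 7.94. The interval in NCAM2, a neural cell adhesion molecule, had 8.06, 7.77 and 8.23, the narrowest spread of the 12. The nearest CREBBP-KO peak to it was 3277060 bp away, the greatest distance among the 12. Near KBTBD8, an adaptor of a ubiquitin ligase, they were 9.13, 7.41 and 8.20. The members of the 12 nearest to FBXO15 and CKMT2 belonged to the clusters described further on. Of the 12, 8 lay between genes and 4 in introns, and none near a start.

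Lost intervals lay far from gene starts. Each was classed by the summit of its highest WT peak against protein-coding genes: 461 (51.6%) lay between genes, 393 (43.96%) in introns, 23 (2.57%) in exons and 17 (1.90%) within 1 kb of a start. Among the 50697 WT-passing intervals that kept a peak in at least 1 CREBBP-KO list, called retained, 31.4% lay between genes, 44.2% in introns and 21.7% at starts. Low peaks in general were fewer at starts, so retained intervals with a mean WT fold under 5 were set beside them as well: 33.4% lay between genes, 56.9% in introns and 5.99% at starts. By the mirrored rule 1893 intervals were gained, reaching the same fold in each CREBBP-KO list and having no WT peak. Of these 42.7% lay between genes and 7.08% at starts.

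The median distance from a lost interval to the nearest protein-coding start was 72513 bp, against 20243 bp for all retained, 27396 bp for the low retained and 29739 bp for gained intervals. A start lay beyond 200 kb for 251 lost intervals (28.1%), against 9.57%, 10.6% and 10.4% of those sets. Within the WT-passing intervals of mean fold under 5, the share lost was larger at greater distance, at 1.53% within 1 kb, 3.43% from 1 to 10 kb, 3.48% from 10 to 50 kb, 5.89% from 50 to 200 kb and 11.4% beyond 200 kb. These shares describe the intervals the rule chose and were not tested.

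Host genes of intronic sites were long. For the 393 lost intervals in introns, the median length of the host gene was 240.6 kb, and 103 (26.2%) lay in genes longer than 500 kb. For retained intronic intervals the median was 168.4 kb and 12.6% were in such genes, and for gained ones 164.2 kb and 11.2%.

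Lost intervals were also poor in GC and narrower than retained ones. In the 300 bp around the summit, median GC was 39.3% in lost, 45.7% in retained, 43.0% in low retained and 47.3% in gained intervals. No CpG dinucleotide was present in 16.6% of lost windows, 13.6% of low retained and 10.1% of gained windows. When WT-passing intervals of mean fold under 5 were split at the GC values that divide all WT-passing intervals into 4 equal groups, the share lost fell from 7.08% in the group lowest in GC to 5.31%, 3.20% and 1.22% in the group highest in GC. The median width was 1166 bp for lost, 1139 bp for gained, 1777 bp for low retained and 2620 bp for retained intervals. A merged interval with peaks in more lists can be wider by construction.

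In the same windows 12 motifs were searched on both strands. The AP-1 motif, bound by dimers of FOS and JUN proteins, was searched as TGANTCA, and the CRE, bound by CREB, as TGACGTCA. For TEAD factors, which act with YAP, the letters searched were GGAATG, for forkhead factors (FOX) they were TGTTTAC, and for RUNX factors they were TGTGGTT. Those of the GATA family were represented by AGATAA, while CGGAAG stood for the large family of ETS factors and GGGCGG for the zinc-finger factors of the SP/KLF family. The other motifs with letters printed here were TTGCNNAA for C/EBP factors, GGGANTTCC for NF-kB and, for the TCF/LEF factors of Wnt signalling, ATCAAAG. The remaining motif is that of p53 and p63. Matches of different motifs could overlap, and a window was counted for each. An AP-1 match was found in 140 lost windows (15.7%), against 10.6% of retained, 13.6% of low retained and 12.9% of gained windows. A GATA match was in 200 lost windows (22.4%), against 15.7%, 19.0% and 16.1%, and a C/EBP match in 160 (17.9%), against 12.4%, 13.9% and 12.2%. TEAD matches were in 16.9% of lost and 16.8% of low retained windows, close to each other.

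The motifs rich in G and C were rarer in lost windows. SP/KLF matches were in 19 of them (2.13%), against 17.3% of retained, 7.32% of low retained and 10.5% of gained windows. ETS matches were in 21 (2.35%), against 7.49%, 4.00% and 5.02%. The CRE, bound by the factor after which CREBBP is named, was in 2 lost windows (0.224%). Its share was 0.217% of retained, 0.113% of low retained and 0.0528% of gained windows. With 2 lost windows, no difference between the sets can be read for this motif. Shares for lost and low retained windows were 6.04% and 5.84% for FOX, 6.26% and 6.15% for RUNX, 4.81% and 4.63% for TCF/LEF, 0.559% and 0.973% for NF-kB and 0.671% and 1.81% for p53/p63. GC content differed between the sets in the same direction as these letters, and its part in the shares was not tested.

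By chromosome, the share of WT-passing intervals that were lost was highest on chromosome 18, with 31 of 980 (3.16%), and on chromosomes 4 (91 of 3094, 2.94%) and X (38 of 1337, 2.84%). It was lowest on chromosome 16, with 5 of 1391 (0.359%), and on chromosomes 22 (3 of 736, 0.408%) and 19 (8 of 1349, 0.593%). On chromosome 18, 18 of the 31 lay in 1 cluster.

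**Figure D2:**
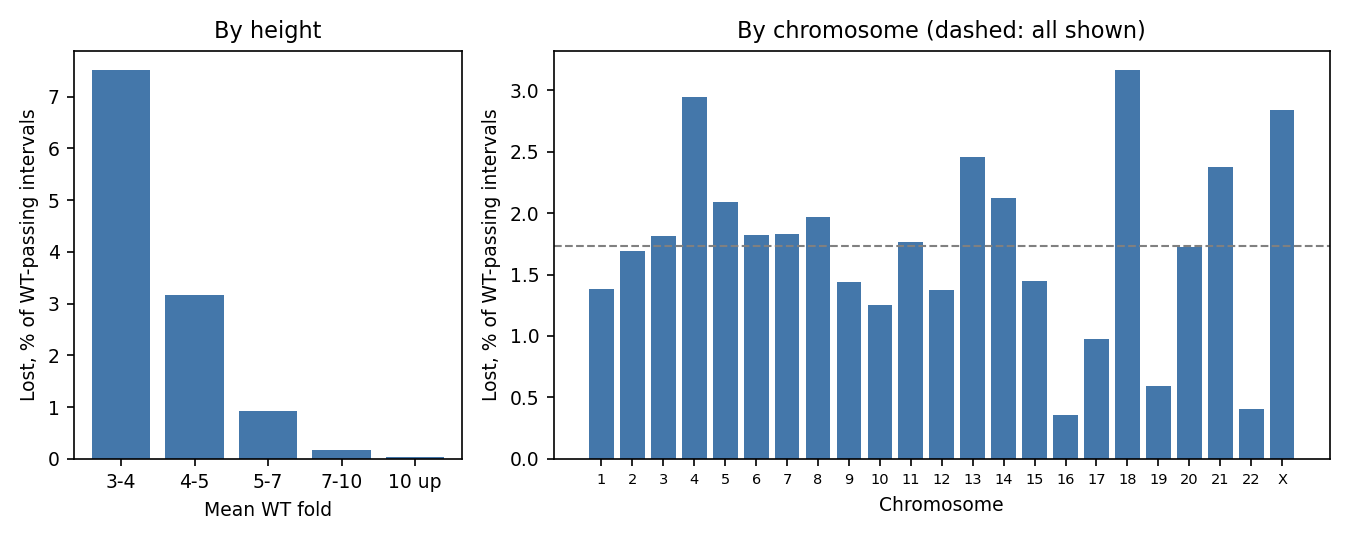
Share of WT-passing intervals that were lost (y axes, %, from 0), by mean WT fold on the left and by chromosome on the right, where the dashed line is the share over the chromosomes shown. The share falls from 7.51% at a fold from 3 to under 4 to 0.0280% at 10 or more, and ranges from 0.359% on chromosome 16 to 3.16% on chromosome 18.

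Lost intervals were chained into clusters where the gap between edges was at most 100 kb. Of the 894, 656 stood alone, and the other 238 (26.6%) formed 73 pairs, 13 clusters of 3 and 8 of 4 or more. Of the 1893 gained intervals, 664 (35.1%) had another gained interval within 100 kb. The gained set is the larger, so this share is not directly comparable with the 26.6%. A gained interval lay within 100 kb of 44 lost intervals (4.92%), with no such share computed for retained intervals. No cluster of 3 or more held a gained interval. A retained interval lay within 10 kb of 427 lost intervals (47.8%) and within 50 kb of 725 (81.1%). A CREBBP-KO peak of any fold lay within 1 kb of 132 (14.8%) and within 10 kb of 547 (61.2%). At the other end, 82 lost intervals (9.17%) had no CREBBP-KO peak within 100 kb.

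The largest cluster held 18 lost intervals over 358.9 kb of chromosome 18, from 73383219 to 73742121 (hg38). No protein-coding gene lies in this stretch. Its lost intervals were nearest to NETO1, which encodes an accessory subunit of glutamate receptors, and to FBXO15, an F-box gene expressed in embryonic stem cells, at distances from 381675 to 624166 bp. The mean WT folds of the 18 ran from 3.57 to 8.60. The highest, from 73586631 to 73593659, had 8.30, 10.3 and 7.20 in the 3 WT libraries, and the next, from 73406395 to 73409168, had 6.59, 8.68 and 7.72.

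Counting all peaks of any fold in the stretch, WT replicates 1, 2 and 3 had 63, 67 and 56 and CREBBP-KO replicates 1, 2 and 3 had 18, 19 and 22. The groups did not overlap, which the 18 lost intervals fix in part. Of the 17 retained intervals in the stretch, 10 had a peak in all 3 CREBBP-KO lists, 4 in 2 and 3 in 1. The stretch was thus thinned rather than emptied, and the peaks that remained in CREBBP-KO had median folds of 4.58, 5.07 and 3.88, against 4.40, 4.80 and 4.92 for all its peaks in WT.

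Some other clusters held no CREBBP-KO peak. For all clusters named from here on, as on chromosome 18, the rule fixes the peak counts in part. Every lost interval in them has a peak in each WT list and none in any CREBBP-KO list. The counts are therefore descriptions and not tests. On chromosome 4, from 179589870 to 179697237, 6 lost intervals lay over 107.4 kb, more than 2 Mb from the nearest start, of AGA, a lysosomal enzyme gene. The WT libraries had 10, 12 and 12 peaks there and the CREBBP-KO libraries 0 each. Its highest member had folds of 8.00, 5.42 and 7.11. The gap between the flanking CREBBP-KO peaks was 2599.7 kb, in which the WT libraries had 13, 14 and 15 peaks. A cluster of 4 beyond VRK1, a nuclear kinase gene on chromosome 14, likewise had 5, 4 and 4 WT peaks and none in CREBBP-KO. In all, 7 of the 21 clusters of 3 or more held no CREBBP-KO peak.

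Such stretches also lay in the body of RASGRF2 and at PTGER3. RASGRF2 encodes an exchange factor for Ras and Rac, and 3 lost intervals in its introns spanned 165.9 kb of chromosome 5, from 80986830 to 81152692. WT libraries had 11, 11 and 10 peaks in that span and CREBBP-KO libraries 0 each. The lost interval at its far end, whose nearest start is that of CKMT2, a mitochondrial creatine kinase gene, had folds of 6.04, 9.55 and 8.44. PTGER3 encodes a receptor for prostaglandin E2. Its cluster of 3, of which 1 lay in an intron and 2 lay between genes, spanned 100 kb of chromosome 1 and had 4, 5 and 5 WT peaks and 0 in each CREBBP-KO library, with folds of 7.81, 8.00 and 6.95 at the highest member. With another lost interval in its body, 4 of the 5 WT-passing intervals nearest to PTGER3 were lost.

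The other large clusters kept part of their peaks. In and beside CDH9, a type II cadherin gene on chromosome 5, 6 lost and 12 retained intervals lay between 26794869 and 26988437. WT libraries had 33, 27 and 26 peaks there and CREBBP-KO libraries 20, 26 and 19, so the groups met at 26. Between ETAA1, an activator of the kinase ATR, and C1D, an exosome cofactor gene, on chromosome 2, 6 lost intervals lay between 67656723 and 67817551, where WT libraries had 12, 10 and 9 peaks and CREBBP-KO libraries 1, 3 and 2. Upstream of TENM3, a teneurin gene on chromosome 4, 5 lost intervals lay from 181560220 to 181643918, with 20, 22 and 14 WT peaks and 4, 5 and 3 in CREBBP-KO.

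At gene starts, 17 intervals were lost. Among the 10 highest were those at RIPOR3, CREB5, IQSEC3, ARMH4, HTR1F, LGALS4, IFNE, AMY2B and PCNX1. A start here is that of any protein-coding transcript and can lie inside the gene. This was so at PCNX1, where the summit was at 71013883 and the gene begins at 70907405, and at ARMH4, RIPOR3, AMY2B and LGALS4. A lost interval at such an inner start does not speak to the outermost start of the gene. LGALS4 encodes galectin-4, a lectin of the intestinal epithelium, and was the only one of the 15 colonic epithelial markers with a promoter peak in all WT lists and none in CREBBP-KO. Its lost interval, on chromosome 19 from 38807487 to 38808504, had folds of 4.47, 4.19 and 4.14, and the nearest CREBBP-KO peak was 1625 bp away. At CREB5, of the CREB/ATF transcription factor family, the lost interval on chromosome 7 from 28299057 to 28299757 had 5.14, 4.02 and 5.995, its summit 9 bp from a start. At IFNE, an interferon of epithelia, the folds were 3.91, 3.66 and 4.12.

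The other promoter peaks named were of similar height. HTR1F, a serotonin receptor gene on chromosome 3, had 4.62, 3.82 and 4.42 at its start and 3 further lost intervals in and beside it, which together spanned 162.3 kb. WT libraries had 16, 15 and 14 peaks in that span and CREBBP-KO libraries 3 each. RIPOR3 had 4.48, 5.27 and 6.46 and IQSEC3 4.88, 3.66 and 5.92, with the order of the libraries differing between genes. ARMH4 had 4.45, 5.28 and 3.82, AMY2B, a pancreatic amylase gene, 3.66, 3.88 and 3.86, and PCNX1 3.42, 4.11 and 3.86.

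The lost intervals were nearest to 679 protein-coding genes, of which 475 (70.0%) had a promoter peak in all 3 WT lists. This share was 83.1% for genes nearest to a retained interval and 62.8% for all protein-coding genes. A single lost interval was assigned to 555 genes and 4 or more to 20. NETO1 had the most, 11 of its 16 WT-passing intervals, and had no promoter peak common to the WT lists. FBXO15 and CDH9 followed with 7 each, of 26 and 57. AGA and VRK1 had 6 of 15 and 6 of 12, and SLITRK5 and TENM3 6 of 36 and 6 of 43. NCKAP5, SNTG1 and PABPC4L had 5 each, of 26, 9 and 47. The spacing of starts around these genes, on which the number of nearest intervals depends, was not measured.

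Lists of genes were read by how many WT-passing intervals nearest to their members were lost, beside 1.73% over all. Lists of cadherins, axon guidance genes and potassium channels had higher shares. Among cadherins and protocadherins 19 of 346 were lost (5.49%), 7 of them at CDH9, 3 at PCDH18 and 3 at CDH4. Among axon guidance receptors and ligands 20 of 482 were lost (4.15%), with 4 at ROBO2, 3 at SEMA6D and 3 at SLIT2. Among potassium channels 13 of 284 were lost (4.58%), with 4 at KCND2, 3 at KCNMB2 and 1 at KCNN2. The intron interval of KCNMB2, an auxiliary channel subunit, had folds of 7.16, 7.28 and 9.30, and those at ROBO2 were low, from 3.34 to 5.03. Intervals of 1 gene share a locus, so these counts are not independent. The lists were not matched for distance to a start. Of all WT-passing intervals beyond 200 kb from a start, 4.92% were lost, a share near those of these lists. The part of distance in them was not tested.

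Lists tied to the colon rested on 1 or 2 lost intervals each. Among genes of colonocyte and goblet differentiation 2 of 27 were lost (7.41%, the highest share of any list), at LGALS4 and in an intron of CDH17, a liver-intestine cadherin, where folds were 3.45, 3.29 and 3.43. Among intestinal identity transcription factors 2 of 105 were lost (1.90%), both nearest to HNF4G. Keratins had 1 of 24 (4.17%), near KRT12, with folds of 5.33, 6.72 and 4.17, and claudins 2 of 77 (2.60%), both at CLDN8. Nuclear receptors, a broader list of transcription factors, had more, at 8 of 292 (2.74%). Of the 4 intervals near NR3C2, the mineralocorticoid receptor, 3 were lost, with 2 more lost near HNF4G and 1 near ESRRG.

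Apart from nuclear receptors, lists of signalling pathways and transcription factors had few lost intervals, at shares near or below that over all intervals. Of the Wnt pathway 2 of 234 were lost (0.855%). They were an intron interval of DKK2 with 6.35, 4.41 and 6.14 and 1 in ERC2 with WNT5A as its nearest start. Of the TGF-beta and BMP pathway 5 of 349 were lost (1.43%), among them intervals at GDF6, SMAD6 and TGFBR3, of EGF receptors, ligands and MAPK feedback 4 of 286 (1.40%), among them NRG1, ERBB4 and PHLDA1, and of AP-1 and CREB/ATF factors 2 of 133 (1.504%), at CREB5 and JUND. The epithelial-mesenchymal list had 3 of 183 (1.64%), at TP63, ACTA2 and ZEB1. The YAP-TEAD pathway (CCN2), collagens (COL11A1), integrins and laminins (LAMB4), NF-kB, cytokines and chemokines (CCL20) and forkhead factors had 1 each, of 157, 238, 144, 134 and 188. The Notch pathway had 0 of 102 and histone acetyltransferases 0 of 63.

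Peaks outside the lost intervals were then examined. The rule did not use them, but the places were chosen with the same libraries and the same genotype labels. Fewer CREBBP-KO peaks beside sites chosen for having none can follow in part from that choice. Flanks can also hold sites that narrowly missed the rule. Exchanging labels afterwards does not undo the choice, so the permutation p-values given here are descriptions and not valid tests. Within 10 kb of a lost interval WT replicates 1, 2 and 3 had 1198, 1206 and 1040 other peaks and CREBBP-KO replicates 980, 988 and 940. The groups did not overlap (1148 ± 93.6 against 969 ± 25.7, SD, n = 3 each, exact permutation test, both sides, p = 0.1, which is the lowest possible with 3 against 3). Within 50 kb the WT libraries had 4397, 4315 and 3855 and the CREBBP-KO libraries 4173, 4067 and 3823, which overlapped (4189 ± 292 against 4021 ± 179, SD, n = 3 each, exact permutation test, p = 0.4). As a share of each list, which allows for the longer CREBBP-KO lists, these were 4.70%, 4.65% and 4.47% in WT and 3.74%, 3.87% and 3.86% in CREBBP-KO, without overlap (4.61% ± 0.118 against 3.82% ± 0.0759, SD, n = 3 each, exact permutation test, p = 0.1). Within 100 kb the numbers of peaks were 7202 ± 444 and 7203 ± 348 (SD, n = 3 each, exact permutation test, p = 1). The shares of each list were apart, at 7.92% ± 0.135 in WT and 6.85% ± 0.0897 in CREBBP-KO (SD, n = 3 each, exact permutation test, p = 0.1). With the numbers so close, this difference in share comes from the length of the CREBBP-KO lists.

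Among intervals near lost ones, the share that ranked lower in CREBBP-KO was about 2 times the share over all tested intervals. The 50748 intervals with a peak in all 6 lists, and a fold of at least 3 in all lists of 1 genotype, were ranked by fold within each library, the ranks were turned into normal scores, and the shift, CREBBP-KO minus WT, was fitted with limma. Its unit is 1 SD of the scores in a library. At a Benjamini-Hochberg adjusted p under 0.05 over all of them, 12.7% were lower and 13.0% higher in CREBBP-KO. Within 50 kb of a lost interval lay 2086, of which 558 (26.7%) were lower and 134 (6.42%) higher. In 733 of them (35.1%) all CREBBP-KO libraries ranked below all WT libraries, beside 19.8% over all tested intervals.

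The median score of these neighbours was 0.07, 0.06 and 0.03 in the WT libraries and -0.21, -0.20 and -0.21 in the CREBBP-KO libraries, so the groups were apart. Their median shift was -0.27, against 0.01 over all. The count of higher neighbours was 87 without CREBBP-KO replicate 1 and 85 without replicate 2. Without the neighbours of the cluster on chromosome 18, a set left out after the data were seen, 549 of 2075 were lower (26.5%).

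The share of lower intervals fell with distance from the nearest lost interval. It was 35.4% of 543 within 10 kb, 24.8% from 10 to 25 kb, 22.9% from 25 to 50 kb, 21.5% from 50 to 100 kb, 16.2% from 100 to 250 kb, 14.2% from 250 to 500 kb, 12.7% from 500 to 1000 kb and 10.5% beyond. The share of higher intervals ran the other way, from 4.42% within 10 kb to 14.4% beyond 1000 kb. The pattern was present at all heights. In 4 equal groups by mean score, from low to high, 21.1%, 24.5%, 29.5% and 33.2% of neighbours within 50 kb were lower, against 8.10%, 10.6%, 13.1% and 16.4% of intervals farther away. Over all tested intervals of these groups the shares were 8.69%, 11.2%, 13.7% and 17.1%.

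**Figure D3:**
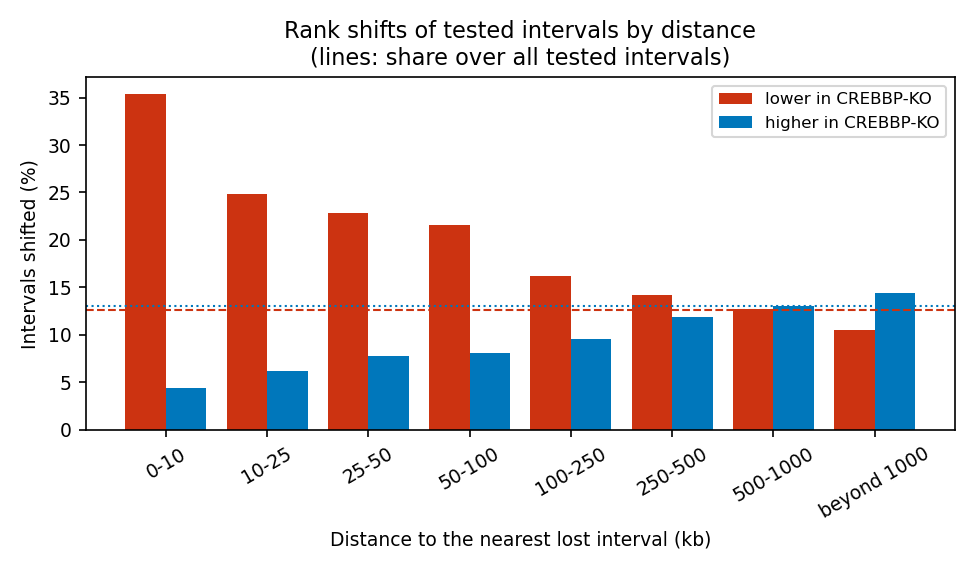
Share of tested intervals (y axis, %, from 0) that ranked lower (red) or higher (blue) in CREBBP-KO at an adjusted p under 0.05, by distance to the nearest lost interval (x axis, kb); lines give the shares over all tested intervals, 12.7% lower (dashed) and 13.0% higher (dotted). Lower intervals fall from 35.4% within 10 kb to 10.5% beyond 1000 kb.

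Neighbours of clusters and of single lost intervals both held a larger share of lower shifts than the 12.7% over all. Within 50 kb of lost intervals in clusters of 2 or more, 141 of 337 (41.8%) were lower and 13 higher, and within 50 kb of single ones 417 of 1749 (23.8%) and 121. Beside the cluster of 18 on chromosome 18, 9 of 11 were lower, 0 higher, and the median shift was -0.81. The difference between these sets was not tested.

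The largest shifts among neighbours were downward. In an intron of ERC2, which encodes a scaffold protein of the presynaptic active zone, an interval 6106 bp from a lost one stood at the percentiles 83.9, 90.1 and 77.05 of the WT lists and 47.2, 5.24 and 1.82 of the CREBBP-KO lists. It shifted by -2.89 (standard error 0.38, limma adjusted p = 2.7e-05). The lost interval beside it, on chromosome 3 from 55892277 to 55893951, had folds of 3.65, 4.29 and 3.61. It is the same interval that was counted for WNT5A in the Wnt pathway. In an intron of TP63, a transcription factor of stratified epithelia, an interval 19387 bp from a lost one stood at 87.7, 88.7 and 74.9 in WT and 18.9, 23.9 and 8.42 in CREBBP-KO, a shift of -2.79 (standard error 0.30, adjusted p = 4.1e-06 from limma). The lost TP63 interval, from 189663377 to 189665632, had 4.60, 4.34 and 3.52. At both genes a low site was lost beside a high site that kept a low peak.

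The next were in an intron of NCKAP5, with a shift of -2.54 (adjusted p = 5.39e-05 from limma), between genes nearest to TCF21, a mesenchymal transcription factor, with -2.44 (adjusted p = 9.09e-06 from limma), and nearest to LRATD1, with -2.23 (adjusted p = 7.98e-06 from limma). They lay 4228, 3341 and 8859 bp from a lost interval. In the other direction, the largest were nearest to ARHGAP5, the gene of a GTPase-activating protein (1.69, adjusted p = 4.22e-05 from limma), IPMK, an inositol phosphate kinase gene (1.68, adjusted p = 0.00542 from limma) and ADAT2, a tRNA deaminase gene (1.59, adjusted p = 0.00267 from limma), in FAS, the death receptor gene (1.58, adjusted p = 0.0118 from limma), and in ZFAND3 (1.57, adjusted p = 0.00428 from limma). The distances of these to a lost interval were 47926, 8689, 27958, 47285 and 25767 bp.

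In the fit described above, promoters of the nearest genes held a larger share of lower and a smaller share of higher shifts than promoters over all. Of the 679 genes, 455 had a tested promoter interval, of which 57 (12.5%) were lower and 74 (16.3%) higher in CREBBP-KO. Over the promoters of all protein-coding genes, 7.06% of 12233 were lower and 24.0% higher. The median shift was 0.06 for the nearest genes and 0.17 over all promoters. Of the 78 promoters of genes with 2 or more lost intervals, 15 (19.2%) were lower and 9 higher. The counts over the 455 promoters depended on the ranking and the model. Ranked by -log10 p, 40 (8.79%) were lower and 22 (4.84%) higher, so that the balance turned, beside 8.17% and 7.93% over all tested intervals. Without a trend in limma they were 30 (6.59%) and 34 (7.47%), beside 8.27% and 8.53%. Shares over all promoters were not computed for these fits, so the comparison with promoters over all was not repeated in them. The count of higher promoters was 46 without CREBBP-KO replicate 1 and 48 without replicate 3.

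The promoter with the largest downward shift was that of EPHA5, an ephrin receptor gene, with -1.97 (standard error 0.36, adjusted p = 0.000508 from limma). It stood at the percentiles 66.5, 67.3 and 63.7 of the WT lists and 32.8, 10.6 and 9.70 of the CREBBP-KO lists, and a lost interval lay 1626 bp away, with folds of 4.30, 4.03 and 4.29. KYNU, an enzyme gene of tryptophan degradation, had -1.64 (adjusted p = 7.68e-06 from limma). RASGRF2, whose body holds the stretch without CREBBP-KO peaks, had -1.53 (standard error 0.17, adjusted p = 7.12e-06 from limma). Its promoter stood at 99.3, 99.3 and 95.6 in WT and 84.7, 80.5 and 85.2 in CREBBP-KO, so it kept a high peak.

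ABCB1, a drug efflux pump gene, had -1.36 (adjusted p = 0.00027 from limma) and HGF, the ligand of the receptor MET, -1.34 (adjusted p = 1.08e-05 from limma). HGF had lost intervals in its introns, with folds of 3.66, 3.43 and 4.49 and of 4.64, 4.57 and 4.63. In the other direction, SF3B1, a core splicing factor gene, had 1.36 (adjusted p = 1.37e-05 from limma), ESM1, which encodes endocan, 1.23 (adjusted p = 0.0152 from limma), THUMPD2 1.17 (adjusted p = 2.89e-05 from limma), ZNF37A, a zinc-finger gene, 1.12 (adjusted p = 1.86e-05 from limma) and G2E3, a ubiquitin ligase gene, 1.08 (adjusted p = 2.79e-05 from limma). The nearest gene of a lost interval could thus have a promoter that ranked higher in CREBBP-KO. The promoters of SF3B1, RASGRF2, G2E3 and HGF lay 7040, 16199, 25071 and 40506 bp from a lost interval. Those of KYNU, ABCB1, THUMPD2, ESM1 and ZNF37A lay farther, at 88654, 114162, 144193, 153961 and 340831 bp.

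A gained interval lay within 50 kb of 22 lost intervals (2.46%), without a comparison share for other intervals. The closest pair was 7131 bp apart near CCDC34 on chromosome 11, where the lost interval had WT folds of 4.15, 5.03 and 3.602 and the gained one CREBBP-KO folds of 4.57, 3.77 and 3.49. Other close pairs lay at GRIK4, a kainate receptor gene, 10554 bp apart, PTGFR, a prostaglandin receptor gene, 11512 bp apart, and JUND, an AP-1 transcription factor gene, 11720 bp apart. All members of the pairs named were low, with folds from 3.04 to 5.03.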

How the data were processed

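H3K27ac ChIP-seq peak lists of 3 WT and 3 CREBBP-KO libraries were used; inputs were not used here. The authors aligned reads to hg38 with BWA in the ChIP-seq pipeline of nf-core and called narrow peaks with MACS2 per library; which input was the control, and whether the lists precede the downsampling of reads, is not given in the sources used here. The deposited fold is a linear ratio over local background, and the deposited significance is -log10 p and -log10 q. The lists hold no read counts, so depth is unknown and no counting intervals were computed.

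The members and gene lists were chosen with earlier results of these data known. Peaks that overlapped or touched were merged and classed by the summit of the highest WT peak (GENCODE release 44, protein-coding transcripts, 1 kb for a start). Neighbours lay within 50 kb, edge to edge. Shifts were fitted with limma (lmFit, eBayes with trend) to normal scores of ranks. Values per library were compared by exact permutation tests, in places that had been chosen with the same genotype labels. The code was tested on simulated data. Versions were limma 3.58.1 in R 4.3.3, bedtools 2.31.1, pysam 0.24.0, matplotlib 3.10.9, scipy 1.17.1, pandas 2.3.3 and numpy 2.4.6 in Python 3.11.15.

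Named by rule were the 12 highest lost intervals, the 3 on each side of the threshold, the 5 largest clusters, up to 10 promoter intervals, up to 10 genes with 4 or more lost intervals, up to 3 genes per list, the 5 closest lost and gained pairs, and, in each direction, the 5 neighbours and 5 promoters that shifted most and were called with groups that did not overlap. The clusters at VRK1, RASGRF2, PTGER3 and HTR1F, the bins of distance and height, and the lengths of host genes were chosen after their values were seen. Some items that this rule names are not reported here. Alternatives changed the fold, the number of lists, merging, significance, list length, promoter distance, windows, ranking and model, and libraries were left out 1 at a time.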

Additional observations from a re-analysis of the deposited data

How the results depend on the processing

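Lost intervals numbered 894; asking for a fold of 2 gave 1548, of 5 gave 58 and of 10 gave 4. The number was 2657 with the fold in 2 of 3 WT lists and 1484 with lists of the same length, where 2022 were gained. With 1 library left out in turn it ranged from 1215 to 1727. The share at starts was 3.803% within 2.5 kb, 5.37% with starts of all genes and 0% at a fold of at least 5, where 36.2% lay in introns and 60.3% between genes. The difference in flanking peaks within 50 kb, -168, turned to 1.33 within 100 kb and ranged from -335 to -64 with 1 library left out.

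The 558 lower and 134 higher neighbours were 192 and 24 within 10 kb and 893 and 260 within 100 kb, as the windows hold fewer or more intervals. Ranked by -log10 p, 68 neighbours and 22 promoters were higher and 40 promoters lower, and without a trend in limma 86 neighbours and 34 promoters were higher and 30 promoters lower; the cause was not tested. With 1 library left out, lower neighbours ranged from 389 to 508, higher neighbours from 85 to 118, lower promoters from 38 to 52 and higher promoters from 46 to 77. In each of these fits with a library left out, and in the others run, the share of lower neighbours was above that of all tested intervals, at 18.7% to 37.2% against 8.17% to 18.7%.

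Same-numbered libraries did not deviate together, with correlations of 0.0015, 0.0012 and 0.0091, so the numbers were not taken to pair them. With the replicate number as a block, 27.2% of neighbours were lower and 6.38% higher. The share of repeat bases in the windows was planned and not run, as the reference is not masked. Peaks near the caller's threshold limit the result, since a site with a weak remaining signal and a site without any are both listed as having no peak.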
